A study of Mus musculus with 2 samples.

Results

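Resident-type macrophages of mouse brown adipose tissue were picked out of single-nucleus RNA libraries by the genes detected in each barcode, and they numbered 933 of 29175 barcodes. A barcode was a member when at most 10% of its UMIs were mitochondrial, when Ppara and Cidea together made up less than 0.3% of its UMIs, and when at least 3 of 10 macrophage genes were detected (F13a1, Mrc1, Cd163, Mctp1, C1qa, C1qb, C1qc, Clec10a, Aoah and Adgre1). At most 1 of 7 genes of other cells could be detected (Flt1, Cyyr1, Col6a3, Dcn, Ttn, Abcc9 and Skap1). The members were thus chosen on measured values, so the levels of these 19 genes describe the selection and support nothing further. A UMI is the molecular tag that marks 1 captured RNA molecule, and a barcode marks 1 droplet, which should hold 1 nucleus.

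The tissue came from mice of 4 weeks, with a single Flox library and a single KO library, which the series design gives as Nfe2l1(f)-KO, a knockout of the gene of the transcription factor NFE2L1 (NRF1). Flox stands for an allele flanked by recombination sites; the promoter that drove the recombinase, the deleted part of the gene, and the number and sex of the mice behind each library are not stated in the labels. With 1 library per genotype no difference between genotypes has a replicate check, and no test between genotypes was run. Values are set side by side with 95% intervals that cover counting error only, not the spread between nuclei or mice.

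Tissue macrophages are phagocytes that settle in an organ and keep up their numbers there by local division and by renewal from blood monocytes. They clear dying cells, take up proteins, lipid and iron through scavenger receptors, make complement components, and present antigen on MHC class II. In many tissues, macrophages with LYVE1, an endocytic receptor, lie along blood vessels and nerves and carry little class II, while class II-rich macrophages have low LYVE1. In brown fat, macrophages lie between lipid-laden adipocytes whose heat production is under the control of noradrenaline.

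F13a1, Mrc1 and C1qb are 3 of the 10 macrophage genes of the selection. Pdgfc had the most UMIs of the 12 genes named below as higher in KO. Promoter sequences of these genes, which the account of these nuclei turns on, are shown. They came from RefSeq on build GRCm38.p6, which has the coordinates of mm10, as the 250 bases before the transcription start, read 5′ to 3′ on the gene's own strand. Of 15 genes looked up, 12 had an entry. The GAGGAA core, read by ETS factors such as PU.1 (Spi1), the leading regulator of the macrophage lineage, and TGACNNNGC, the antioxidant response element read by CNC factors such as NFE2L1 and NFE2L2 with a small MAF partner, were searched on both strands. Matches are in capitals, and those on the opposite strand read TTCCTC or GCNNNGTCA.
F13a1, chr13:37050245-37050494, minus strand: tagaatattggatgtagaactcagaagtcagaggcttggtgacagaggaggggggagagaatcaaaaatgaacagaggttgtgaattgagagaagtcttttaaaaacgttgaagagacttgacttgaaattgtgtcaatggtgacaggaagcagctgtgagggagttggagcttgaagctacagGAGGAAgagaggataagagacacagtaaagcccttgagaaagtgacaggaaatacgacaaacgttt
Mrc1, chr2:14229164-14229413, plus strand: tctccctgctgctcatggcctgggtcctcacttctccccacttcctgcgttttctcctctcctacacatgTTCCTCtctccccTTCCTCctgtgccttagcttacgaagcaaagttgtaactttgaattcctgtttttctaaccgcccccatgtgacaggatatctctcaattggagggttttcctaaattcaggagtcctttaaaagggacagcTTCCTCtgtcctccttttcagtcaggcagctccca
C1qb, chr4:136886201-136886450, minus strand: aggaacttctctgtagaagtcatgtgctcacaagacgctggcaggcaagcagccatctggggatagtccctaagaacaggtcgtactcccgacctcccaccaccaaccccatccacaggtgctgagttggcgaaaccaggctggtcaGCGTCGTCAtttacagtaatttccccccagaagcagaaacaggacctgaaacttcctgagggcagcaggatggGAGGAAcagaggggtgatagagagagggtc
Pdgfc, chr3:81036166-81036415, plus strand: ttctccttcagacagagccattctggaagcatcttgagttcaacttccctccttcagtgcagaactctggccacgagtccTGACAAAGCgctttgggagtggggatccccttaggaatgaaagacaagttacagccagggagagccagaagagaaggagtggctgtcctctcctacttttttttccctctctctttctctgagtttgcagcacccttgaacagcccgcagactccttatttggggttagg
Among these windows, F13a1 had 1 match to GAGGAA, Mrc1 had 3, and C1qb had 1 match to GAGGAA and 1 to TGACNNNGC, while Pdgfc had 1 match to TGACNNNGC; no match overlapped another. The windows of the other genes with an entry are not printed. Of the selection genes, C1qc had 1 match to GAGGAA, and Cd163 had no match to either motif. Of further genes named below as higher in KO, Klf2, Klf4 and Ddit4 had no match to either motif, and Dusp1 had 1 match to TGACNNNGC. Mmp12 and Apoe had 1 match to GAGGAA each. Of 27025 promoters of this length, 23.12% held GAGGAA and 10.15% held TGACNNNGC, so both are common, and a match is a description of letters rather than a bound site. In the macrophages Spi1 stood at 344 UMIs in Flox against 276 in KO (log2 ratio -0.01).

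Of the barcodes with at most 10% mitochondrial UMIs, macrophages made up 563 of 16046 in Flox, 3.51% (3.23 to 3.81), and 370 of 12907 in KO, 2.87% (2.59 to 3.17). The ratio of the shares, KO over Flox, was 0.817 (0.715 to 0.933). In shares of nuclei, fewer macrophages cannot be told apart from more nuclei of other kinds, and the yield of nuclei from each sample is not given. The macrophages held 1246960 UMIs in Flox, with a median of 1763 per nucleus and a range of 500 to 18771, and 1010674 in KO, with a median of 2203.5 and a range of 503 to 13629. A median of 1203 genes was detected per nucleus in Flox and 1372.5 in KO. The median mitochondrial share was 0.395% in Flox macrophages and 1.12% in KO macrophages, against 0.423% and 1.11% over all kept barcodes, so the gap between the libraries was common to the tissue. Across both libraries 65 barcode sequences occurred in both files, and none of the members was among them.

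Nfe2l1, the gene the KO label refers to, had few UMIs in macrophages and did not differ detectably there. It had 70 UMIs (56.1 CPM, UMIs of the gene scaled to 1000000 UMIs of the group) in Flox macrophages and 62 (61.3 CPM) in KO macrophages, a ratio of 1.09 (0.764 to 1.56), or 0.13 as a log2 ratio, which became -0.21 without the subgroups 3 and 6 described below. In adipocyte-type nuclei, those with Ppara and Cidea at or above the 0.3% limit, the level was higher in the library labelled KO, with a log2 ratio of 1.24. The counts come from the 3′ ends of transcripts and so do not check the label, and every direction below rests on the labels.

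The genes that the selection used stood far above their level in other nuclei. F13a1, the A subunit of clotting factor XIII, stood at 4974 CPM in Flox macrophages and 5594 in KO macrophages, against 36.6 and 29.1 in all other kept barcodes. Mrc1, the mannose receptor CD206, stood at 2758 and 3502 CPM, and Cd163, the scavenger receptor for haemoglobin bound to haptoglobin, at 1181 and 1419. C1qa, a chain of the first complement component, stood at 919.8 and 1210.1 CPM and Adgre1, the F4/80 antigen, at 733.0 and 742.1. The log2 ratios of the 10 genes ran from 0.00 for Aoah, which removes acyl chains from lipopolysaccharide, to 0.40 for C1qa. Without the nuclei of high doublet scores Aoah and Adgre1 had -0.13 and -0.15, and F13a1 had 0.02. The members were chosen by these genes, so the ratios describe the selection. All 10 were detected in 58 nuclei of Flox and 54 of KO. At the edge of the rule, the 35 Flox and 34 KO barcodes with exactly 3 of the 10 genes had 5074 and 5534.5 CPM summed over 12 macrophage genes that the rule did not use, while the 53 and 38 barcodes with 2 of the 10, just outside, had 2999 and 2503 CPM.

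Genes that the rule did not use showed macrophages too. Csf1r, the receptor for the survival factor CSF1, had 703 UMIs in Flox (563.8 CPM) and 646 in KO (639.2 CPM), against 6.74 and 4.58 CPM in other barcodes. Of all genes with at least 100 UMIs in the macrophages of each library, Timd4, a receptor for phosphatidylserine on dying cells, stood furthest above other barcodes, at 121.1 and 113.8 CPM against 0.889 and 0.575. The rest of the 20 furthest above other barcodes included the tetraspan-like Ms4a4a, Ms4a7 and Ms4a8a, the transcription factor Tfec, the costimulatory ligand Cd86, the complement receptor C3ar1, the lectins Mgl2 and Clec4a2, the inhibitory Fc receptor Fcgr2b, and Retnla, Cbr2, Alox5 and Lyve1. The Ms4a genes belong to the same gene family, and whether their likeness affects their separate counts was not tested. Stab1, a scavenger receptor of resident macrophages and sinus endothelium, stood at 814.8 and 938.0 CPM, and Ptprc, the CD45 antigen of all leukocytes, at 808.4 and 827.2.

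After each nucleus was thinned to 1000 UMIs, which left out 118 Flox and 65 KO macrophages that were shallower, Mrc1 was detected in 82.9% of Flox and 86.2% of KO macrophages (90.4% and 90.5% before thinning) and in 1.0% and 0.8% of adipocyte-type nuclei. Csf1r was detected in 42.0% and 50.2% of macrophages and in 0.3% of adipocyte-type nuclei of either library. Cd74, the invariant chain of MHC class II, was detected in 30.6% and 23.9% of macrophages. In the 28 and 31 antigen-presenting type nuclei, the B and dendritic kinds, it was detected in 75% and 83.9%. That kind was set by at least 3 detected genes of a list with Cd74 and H2-Aa, and by under 3 of the 10 macrophage genes. Its shares for Cd74, H2-Aa and Cd163 thus describe that choice in part. The antigen-presenting type nuclei had no UMI of Cd163 or Csf1r at this depth, with 0 of 28 nuclei in Flox, for which 3 nuclei would be 10.7%, and 0 of 31 in KO, for which 3 would be 9.68%. Before thinning, Csf1r had a UMI in 5.13% and 9.38% of them.

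**Figure D1:**
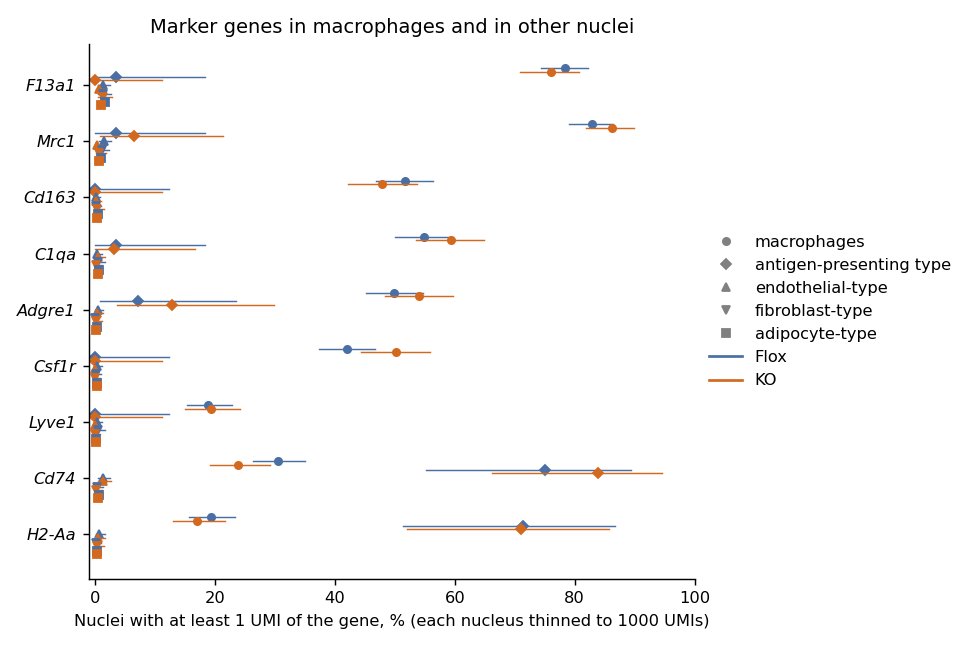
Share of nuclei with at least 1 UMI of each marker gene (x axis, percent) after thinning every nucleus to 1000 UMIs, by kind of nucleus (symbols) and library (blue Flox, orange KO), with 95% exact binomial intervals for counting error. The macrophage symbols stand apart from the rest for F13a1, Mrc1, Cd163, C1qa, Adgre1, Csf1r and Lyve1, whereas Cd74 and H2-Aa were detected most often in antigen-presenting type nuclei. F13a1, Mrc1, Cd163, C1qa and Adgre1 were used to select the macrophages, and Cd74 and H2-Aa to set the antigen-presenting type.

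Defining markers of T cells and of conventional dendritic cells had few UMIs or none in the members, while other genes of those lists were present. Cd3e, the T cell receptor subunit, had 1 UMI in Flox and 0 in KO; Skap1 is held low by the selection and checks nothing. Of 19 T and NK cell markers 5 had no UMI in either library, and their summed level was 182.8 CPM in Flox against 155.3 in KO, most of it Cd226 (145 and 84 UMIs), an adhesion receptor that is also found on myeloid cells. Of 15 dendritic cell markers, Xcr1 and Ccr7 had no UMI and Flt3 had 2 and 0, but the list summed to 1090 and 1179 CPM, most of it Sirpa (592 and 568 UMIs), a receptor that macrophages also carry, with Wdfy4 (267 and 205 UMIs), Cadm1 (163 and 182) and Zbtb46 (100 and 104). B cell markers summed to 1298 and 753.0 CPM, mostly Ebf1 (1208 and 409 UMIs), which adipocytes and mural cells also express, and Bank1 (187 and 177 UMIs). The part of these markers in the differences below was not tested.

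RNA of adipocytes and stroma was present in the members and differed between the libraries. Adipoq, the adiponectin gene, stood at 81.8 CPM in Flox macrophages and 50.5 in KO macrophages, against 307.8 and 363.7 in adipocyte-type nuclei. The 23 adipocyte markers summed to 4404 CPM in Flox against 2718 in KO, a ratio of 0.617 (0.589 to 0.646). The 18 fibroblast and progenitor markers summed to 930.3 and 594.7 CPM, the 18 endothelial markers to 380.1 and 269.1, and the 13 skeletal muscle markers to 350.5 and 92.0. All of these sums were lower in KO. They include genes whose level the selection limits (Ppara and Cidea, Flt1 and Cyyr1, Col6a3 and Dcn, Ttn); without those the ratios of the sums were 0.615 for adipocyte, 0.596 for fibroblast, 0.643 for endothelial and 0.306 for muscle markers. Without the nuclei of high doublet scores the ratios of the full sums were 0.956 (0.902 to 1.01) for adipocyte, 0.889 (0.771 to 1.02) for fibroblast, 0.771 (0.639 to 0.930) for endothelial and 0.335 (0.260 to 0.427) for muscle markers. The adipocyte list then had 2 measured genes at least 1.5-fold higher and none lower, against none higher and 9 lower with these nuclei. The part of this RNA in the other differences was not tested.

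Clustering of the members alone, on 1500 variable genes without the mitochondrial ones, gave 6 subgroups. The subgroups were made from the same counts, so their leading genes and sizes are a description. Subgroup 1 held 246 Flox and 167 KO nuclei and was led by Lyve1, Mctp2 and the C-type lectin Cd209d, with 41460 and 45003 CPM over a list of 24 resident macrophage genes. That list includes genes of the selection. Over all members it summed to 24990 CPM in Flox and 28788 in KO, and to 12783 and 14231 without them. Subgroup 2, with 177 and 124 nuclei, had Ccl12, a chemokine for monocytes, among its leading genes, and its Cd74 level was 1270 and 1161 CPM against 241.4 and 116.4 in subgroup 1. Subgroup 3, with 63 and 23 nuclei, was led over the other members by the brown adipocyte regulator Prdm16 and by Slit3, and 58 of its 86 nuclei had doublet scores high enough to be removed by a doublet caller. Its genes furthest above all other barcodes were Ms4a4a, Ms4a7 and F13a1. Subgroup 6, with 8 and 4 nuclei, was led by Dach1 and Cdh13 and had endothelial markers at 3371 and 3354 CPM.

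Subgroups 4 and 5 went against the resident-type name. Subgroup 4 held 30 Flox and 37 KO nuclei, in which a median of 4 of the 10 selection genes was detected, and was led by Atp6v0d2, a subunit of the lysosomal proton pump, Gpnmb, Mmp12 and Lgals3, genes known from macrophages that take up lipid. Its sum over the resident list was 6640 and 6008 CPM. Subgroup 5 held 39 and 15 nuclei, also with a median of 4 of the 10 genes, and was led by Fn1, the fibronectin gene, Lyz1, Ccr2, the chemokine receptor of inflammatory monocytes, and the mitotic gene Top2a. Its sum over the resident list was 6253 and 6642 CPM. As that list includes genes of the selection, the sums of both subgroups describe the selection in part. These 121 nuclei were kept, since the rule admits them, and are called by their numbers.

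**Figure D2:**
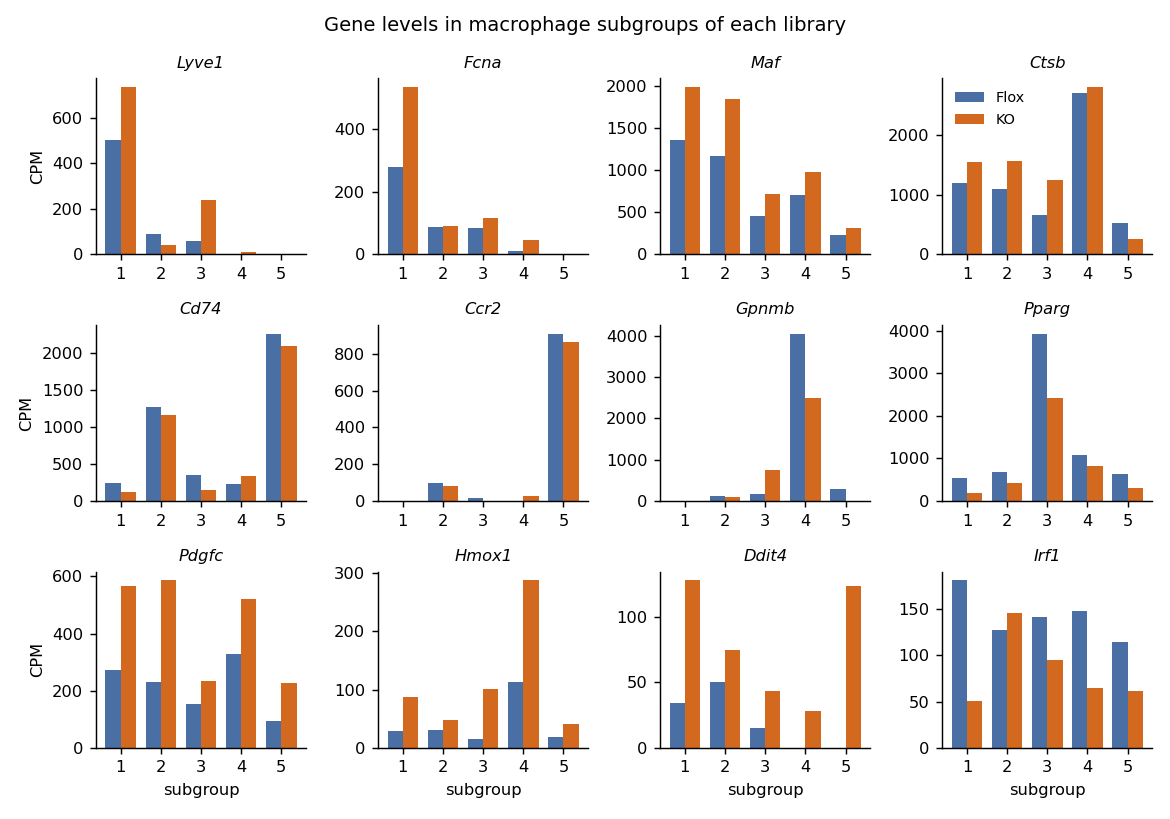
CPM of 12 genes (y axis, a scale of its own for each gene) in subgroups 1 to 5 of the macrophages (x axis), with Flox bars in blue and KO bars in orange and no error bars, since each bar is 1 library. Lyve1 and Fcna peak in subgroup 1, Gpnmb in subgroup 4, Ccr2 in subgroup 5 and Pparg in subgroup 3, and Pdgfc, Maf and Hmox1 are higher in KO in each of the 5 subgroups.

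Nuclei with RNA of the LYVE1 type and of the class II type overlapped in part. With each nucleus thinned to 1000 UMIs, a UMI of Cd74, H2-Aa, H2-Ab1 or H2-Eb1 was found in 48 of 161 Flox macrophages that had a UMI of Lyve1, Folr2, Timd4 or Fcna, 29.8% (22.9 to 37.5), and in 122 of 284 that had none, 43.0% (37.1 to 48.9). In KO the shares were 27 of 140, 19.3% (13.1 to 26.8), and 73 of 165, 44.2% (36.5 to 52.2). In both libraries the share with class II UMIs was lower among nuclei with RNA of the first set; the intervals of the Flox pair overlapped and those of the KO pair did not.

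Between the libraries, 6920 genes had at least 50 UMIs over the macrophages of both. Of these, 43 were at least 2-fold higher in KO, which is 0.621%, and 151 at least 2-fold lower, which is 2.18%. The median log2 ratio over all 6920 was -0.03. The lower side shrank to 35 genes without the nuclei of high doublet scores and to 55 without subgroups 3 and 6, whereas the higher side stood at 42 and 36. Of the 43 higher genes, 11 were mitochondrial, and all 13 mitochondrial genes measured were above 0, with a median of 1.25, beside the higher mitochondrial share of the whole KO library.

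The 12 genes named on the higher side were those furthest apart among genes with at least 50 CPM in KO, a level there not below that of other nuclei, an interval that excluded 1, and no nucleus with over 20% of the UMIs. Pdgfc, which encodes platelet-derived growth factor C, a ligand of PDGFRA on fibroblasts and adipocyte progenitors, had the most UMIs of the 12. The gene (ENSMUSG00000028019) lies on chromosome 3 from 81036416 to 81214040 on the plus strand of mm10. It had 282 UMIs in Flox macrophages (226.2 CPM) and 511 in KO macrophages (505.6 CPM), a ratio of 2.24 (1.93 to 2.59), and was detected in 24.7% and 43.8% of nuclei. With each nucleus thinned to 1000 UMIs it was detected in 80 of 445 Flox and 91 of 305 KO nuclei (29.8%), with a log2 ratio of 0.79 against 1.16 unthinned, so that the difference was below 2-fold at equal depth. The ratio was 2.08 (1.67 to 2.59) in subgroup 1 and 2.54 (1.90 to 3.43) in subgroup 2, and the intervals of the small subgroups 3 to 6 included 1. In adipocyte-type nuclei Pdgfc went the other way, with a log2 ratio of -0.39, and in endothelial-type and fibroblast-type nuclei it stood at -1.41 and -0.37. The macrophage log2 ratio was 1.06 without the nuclei of high doublet scores.

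Hmox1, the haem oxygenase that opens the haem ring and frees its iron, had 39 UMIs in Flox (31.3 CPM) and 99 in KO (98.0 CPM), a ratio of 3.13 (2.14 to 4.66). Its level was highest in subgroup 4, at 113.7 CPM in Flox against 287.9 in KO, and subgroup 1 had 28.0 and 86.7. Ddit4, an inhibitor of mTORC1 that is induced by stress, stood at 28.9 CPM in Flox against 93.0 in KO, a ratio of 3.22 (2.17 to 4.87). Ddit4 was also higher in KO in adipocyte-type, endothelial-type and fibroblast-type nuclei, with log2 ratios of 0.75, 1.14 and 1.97, the same direction as in macrophages, while Hmox1 had -0.14 in adipocyte-type, 1.83 in endothelial-type and -0.68 in fibroblast-type nuclei.

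Klf2 and Klf4, transcription factors of quiescent and alternatively activated myeloid cells, stood at 44.9 and 52.1 CPM in Flox and at 109.8 and 107.8 CPM in KO, with ratios of 2.45 (1.76 to 3.44) and 2.07 (1.51 to 2.86). Dusp1, a phosphatase that switches off MAP kinases, stood at 24.9 and 67.3 CPM, a ratio of 2.71 (1.75 to 4.28). With nuclei thinned to equal depth the log2 ratios were 0.79 for Klf2, 0.86 for Klf4 and 1.26 for Dusp1. Those of Klf2 and Klf4 were thus below 2-fold. The thinned share of macrophages with a Klf2 UMI was 5.6% in Flox and 8.9% in KO, with overlapping intervals. In endothelial-type nuclei it was 17.1% (14.2 to 20.3) and 27.9% (24.1 to 31.9), also higher in KO. Dusp1 was found there in 2.8% and 6.1%, and Klf4 in 13.2% and 9.9%, each with overlapping intervals. The Klf2 difference was mostly that of subgroup 1, at 56.0 CPM in Flox against 205.3 in KO, while subgroup 2 had 26.7 and 37.3 CPM, with an interval that included 1.

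The other named genes on the higher side were Cpt1a, Ucp2, Ifi27l2a, Zfp949, Cd209f and Ankrd33b. Cpt1a, which admits fatty acids to mitochondria, stood at 55.3 and 111.8 CPM, a log2 ratio of 1.01, against -0.59 in adipocyte-type nuclei. Ucp2, a carrier of the inner mitochondrial membrane, stood at 48.9 and 105.9 CPM (1.11) and was also higher in adipocyte-type nuclei (0.85). Ifi27l2a, an interferon-induced gene, stood at 60.2 and 169.2 CPM (1.49), and Zfp949, a zinc finger gene, at 30.5 and 117.7 CPM (1.94). Both were higher in KO in adipocyte-type, endothelial-type and fibroblast-type nuclei as well, with log2 ratios from 0.48 to 1.86, as was Eif4a2, a helicase of translation initiation, at 0.86 in macrophages and 0.69 to 0.85 in the others. Cd209f, a lectin with near copies in its gene cluster, stood at 24.9 and 56.4 CPM, and Ankrd33b, an ankyrin repeat gene, at 21.7 and 50.5.

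**Figure D3:**
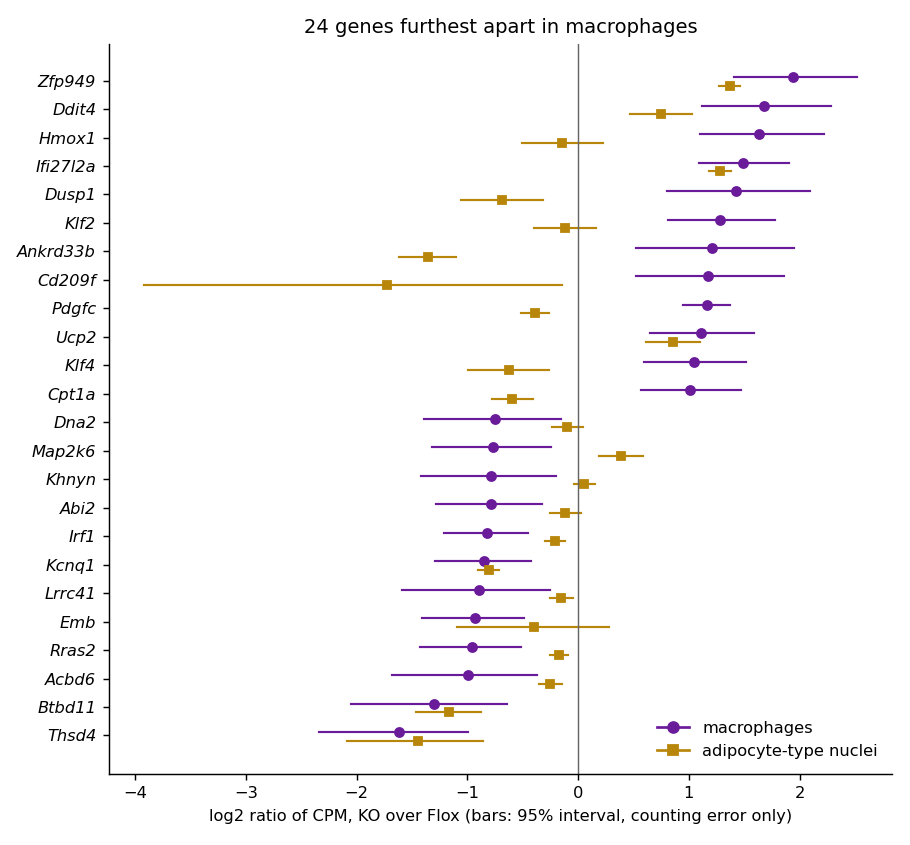
Log2 ratio of CPM, KO over Flox (x axis), of the 24 genes named by size in macrophages (purple circles) and of the same genes in adipocyte-type nuclei (brown squares), with 95% intervals for counting error only. The macrophage values of the 12 higher genes run from 1.01 for Cpt1a to 1.94 for Zfp949, and Hmox1, Dusp1, Klf2, Ankrd33b, Cd209f, Pdgfc, Klf4 and Cpt1a lie on the other side of 0 in adipocyte-type nuclei.

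The 12 genes named on the lower side ran from -0.75 for Dna2 to -1.62 for Thsd4. Irf1, a transcription factor that drives interferon-responsive genes, had 186 UMIs in Flox (149.2 CPM) and 85 in KO (84.1 CPM), a ratio of 0.564 (0.431 to 0.733). With nuclei thinned to 1000 UMIs its log2 ratio was -0.47 in place of -0.82, less than 1.5-fold lower. In subgroup 1 Irf1 stood at 181.1 and 50.2 CPM, whereas in subgroup 2 it stood at 127.0 and 145.6. Emb, a partner protein of lactate carriers, stood at 108.3 and 56.4 CPM, a ratio of 0.521 (0.375 to 0.715), and was near 3.76 and 3.43 CPM in other barcodes. Thsd4, a gene of microfibril assembly, had the lowest ratio at 77.0 and 24.7 CPM (log2 ratio -1.62), and subgroup 5 held 50 of its 96 UMIs in Flox and 7 of 25 in KO. Kcnq1, a potassium channel subunit (-0.85), Rras2, a small GTPase (-0.96), and Btbd11 (-1.30), Acbd6 (-0.99), Lrrc41 (-0.89), Abi2 (-0.79), Khnyn (-0.79), Map2k6, a kinase upstream of p38 (-0.77), and Dna2, a helicase of DNA repair (-0.75), made up the rest. Btbd11, Thsd4 and Kcnq1 were lower in adipocyte-type nuclei too, with log2 ratios of -1.16, -1.44 and -0.80.

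**Figure D4:**
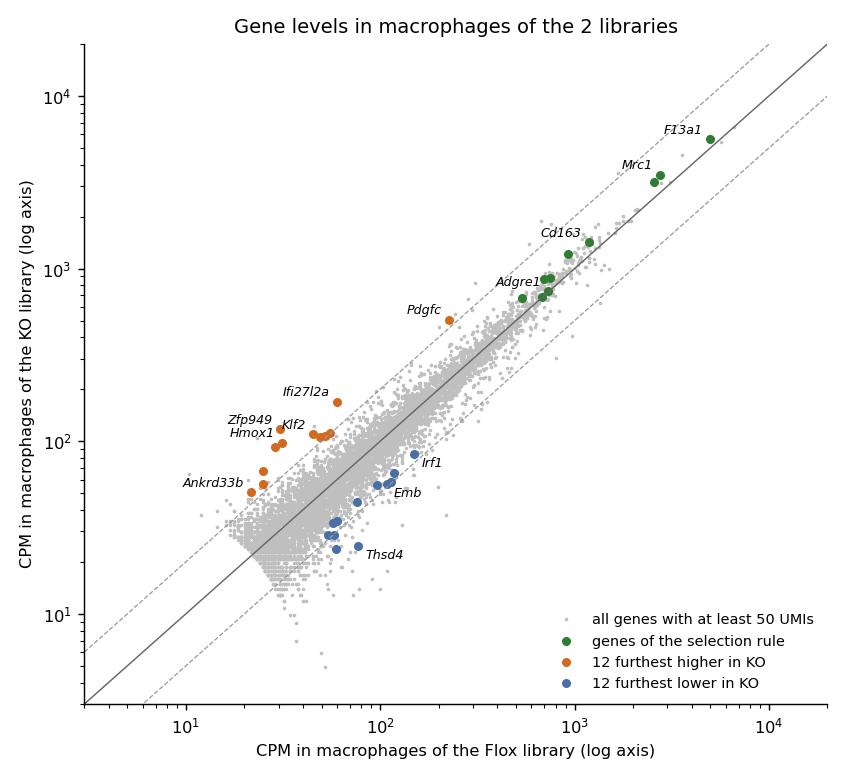
CPM in KO macrophages (y axis, log scale) against CPM in Flox macrophages (x axis, log scale) for the 6920 genes with at least 50 UMIs (grey), with the genes of the selection rule in green, the 12 named higher genes in orange and the 12 named lower genes in blue. The solid line marks equal levels and the dashed lines a 2-fold difference, and the named genes lie between 21.7 and 505.6 CPM, below all 10 genes of the selection.

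A further 3 genes stood far apart with a large part of their UMIs in 1 nucleus, and were chosen for mention after their values were seen. All 65 UMIs of Saa3, a serum amyloid gene, in Flox came from 1 nucleus, against 5 UMIs in KO. Gclc, the catalytic subunit of the enzyme that makes the glutathione precursor, had 57 UMIs in Flox against 123 in KO, and its log2 ratio of 1.41 became -0.04 without its highest nucleus in each library. Mmp12, the macrophage elastase, had 13 UMIs in Flox against 65 in KO, of which 1 nucleus held 39.

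Among the lists by role, described by counts beside the background of all genes, of which 4.21% were at least 1.5-fold higher in KO and 8.47% at least 1.5-fold lower, the resident macrophage programme had 23 measured genes, 5 of which the selection used. Of the other 18, 14 were above 0, 4 were higher by 1.5-fold or more and none lower by as much, with a median log2 ratio of 0.32. Without the nuclei of high doublet scores these counts were 10 of 17 above 0 and 2 higher by 1.5-fold or more, with a median of 0.06, and without subgroups 3 and 6 they were 11 of 17 and 3, with a median of 0.07. Maf, a transcription factor of resident macrophages, stood at 984.0 CPM in Flox against 1586 in KO (log2 ratio 0.69), and was higher in subgroups 1 to 5, with intervals above 1 in subgroups 1 to 4. Lyve1 stood at 228.6 and 364.1 CPM (0.67) and Fcna, the lectin ficolin A, at 144.3 and 277.0 (0.94). Lyve1 and Fcna were higher in subgroup 1, at 502.3 and 736.9 and at 278.1 and 536.2 CPM, whereas in subgroup 2 Lyve1 stood at 90.2 and 41.1. The thinned share of macrophages with a Lyve1 UMI was 18.9% in Flox and 19.3% in KO, and 25.8% and 32.4% before thinning. At equal depth the log2 ratio of Lyve1 was 0.09, and that of Fcna 0.77.

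The lysosome list had 28 of 31 measured genes above 0, with 2 at least 1.5-fold higher, none lower, and a median of 0.23. Without the nuclei of high doublet scores 22 of 31 were above 0 and none was 1.5-fold apart, with a median of 0.15. Grn, the progranulin gene, stood at 472.4 and 710.4 CPM, Ctsb, the protease cathepsin B, at 1102 and 1580, and Laptm5, a lysosomal membrane protein of leukocytes, at 261.4 and 390.8, with ratios of 1.5 (1.35 to 1.68), 1.43 (1.33 to 1.54) and 1.49 (1.29 to 1.74). Ctsb was higher in subgroups 1, 2 and 3, with ratios of 1.30, 1.42 and 1.89, and lower in subgroup 5, with a ratio of 0.474 (0.231 to 0.896). Summed over the list, the level was highest in subgroup 4, at 22263 CPM in Flox and 21451 in KO. That subgroup held 5.33% of the Flox members and 10% of the KO members. The part of these unequal shares in the list's values was not tested. Complement genes other than C1qa, C1qb and C1qc, which the selection used, had a median of 0.06 over 11 measured genes, with none at least 1.5-fold higher and 1 lower. Cfp, the properdin gene, had a log2 ratio of 0.50, and C3 had -0.81 on 46 and 21 UMIs.

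Receptors for uptake were near the background. The scavenger and C-type lectin receptors had a median of 0.08 with none of 15 measured genes at least 1.5-fold apart, and the genes for clearance of dying cells had a median of 0.11 with none of 14. Some of the scavenger and lectin genes were used by the selection. The 12 measured ones that were not had a median of 0.024, with none 1.5-fold apart. Mertk, a kinase receptor that binds dying cells through GAS6 and PROS1, stood at 1096 and 1478 CPM (0.43). Of the Fc receptor and phagocytosis genes, Fcgr1, the high-affinity IgG receptor, was higher at 47.3 and 89.1 CPM (0.91). Tlr7 and Tlr4, innate receptors for RNA and for lipopolysaccharide, stood at 182.8 and 277.0 CPM (0.60) and at 168.4 and 245.4 (0.54).

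Genes of antigen presentation were near the background as a list over all members. Of 14 measured genes of the class II list, 5 were above 0. None was 1.5-fold or more higher and 1 was lower by as much. The median was -0.12 and the ratio of the summed levels 1.03 (0.987 to 1.07). Without the nuclei of high doublet scores 3 of 14 were above 0 and 2 were lower by 1.5-fold or more, with a median of -0.27. The ratio of the summed levels was then 0.927 (0.889 to 0.966), lower in KO with an interval that excluded 1. Cd74 stood at 696.1 CPM in Flox against 519.5 in KO, a ratio of 0.746 (0.668 to 0.833), Ciita, the activator of class II genes, at 151.6 and 106.9 (0.705, 0.551 to 0.898) and Cd40 at 67.4 and 43.5 (0.646, 0.438 to 0.942), whereas Cd86 stood higher at 297.5 and 420.5 CPM. In subgroup 1 Cd74 had a ratio of 0.482 (0.339 to 0.677), and in subgroups 2 and 5, which held most of its UMIs, 0.915 (0.785 to 1.07) and 0.928 (0.728 to 1.17). H2-Aa, a class II chain, was found in 19.3% of Flox and 17.0% of KO macrophages after thinning. Class I genes had a median of -0.04.

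Of the monocyte and inflammatory list only 3 of 25 genes were measured, Ccr2 and Fn1, at log2 ratios of -0.60 and -0.67, and S100a6, at 0.55. The levels of Ccr2 and Fn1 within subgroup 5 were alike in both libraries, with Ccr2 at 910.9 CPM in Flox against 866.3 in KO. Il1b had 0 and 1 UMIs, Nos2 0 and 1, and Tnf 10 and 4, so these cytokine and enzyme genes were too thinly counted to compare. Dividing nuclei were few: 8 of 563 Flox macrophages, 1.42% (0.615 to 2.78), and 0 of 370 in KO, for which 3 nuclei would be 0.811%, had UMIs of at least 5 of 36 cell cycle genes, and 6 of the 8 lay in subgroup 5. The same list summed to 600 UMIs in Flox against 272 in KO.

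Genes of interferon and of inflammatory signalling moved by member rather than as a set. Of 28 measured interferon genes, 4 were higher by 1.5-fold or more and 4 lower, with a median of 0.19. Mx1, an antiviral GTPase, stood at 52.1 and 79.2 CPM (0.60), and Ddx60, a helicase of antiviral sensing, at 315.2 and 463.1 (0.55), whereas the guanylate-binding genes Gbp2 and Gbp3 stood at 56.1 and 26.7 and at 35.3 and 12.9 CPM (-1.06 and -1.42). The Gbp genes are near copies of one another, so their separate counts are uncertain, and both were below their level in other barcodes of the same library. Gbp2 was also lower in the other barcodes of KO, at 57.6 CPM against 113.8 in Flox, whereas Gbp3 stood there at 64.4 against 73.2. In the list of NF-kB and AP-1 signalling, 5 of 18 measured genes were higher by 1.5-fold or more and none lower, with a median of 0.06 that changed sign between the alternatives tried (-0.04 to 0.13). They were Dusp1, Klf2, Klf4, Nfkbia, the inhibitor that holds NF-kB in the cytoplasm (47.3 and 91.0 CPM), and Chuk, a kinase that acts on it (56.1 and 88.1 CPM). The chemokines Ccl9 and Pf4 stood at 142.8 and 227.6 CPM (0.67) and at 134.7 and 177.1 (0.39), and the cytokine Il15 at 290.3 and 312.7 (0.11, and between -0.20 and 0.17 under the alternatives).

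Transcription factors of the lineage differed by member. Spi1 and Runx1 had log2 ratios of -0.01 and -0.05, while Cebpb (0.95) was higher in KO, also in adipocyte-type nuclei (1.29). Pparg, the lipid-sensing receptor that drives fat cell differentiation, stood at 1351 CPM in Flox against 634.2 in KO, and its level in subgroup 3 was 3936 and 2417. Without the nuclei of high doublet scores its log2 ratio was -0.52 in place of -1.09, and in subgroup 1 it stood at 536.8 and 189.4 CPM. Bach2, a repressor of the CNC-BACH family, stood at 263.8 and 167.2 CPM (-0.66), while Nfe2l2 (0.10), Bach1 (0.12), Mafg (-0.12) and Keap1 (-0.06) did not stand apart.

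Among the known targets of NFE2L1, proteasome genes lay mostly below 0, by little. Of 24 measured genes, 7 were above 0, none was 1.5-fold or more higher and 3 were 1.5-fold or more lower, with a median of -0.14. The ratio of the summed levels was 0.888 (0.827 to 0.954), and 0.946 (0.876 to 1.02) without the nuclei of high doublet scores. Psma1, a subunit of the outer ring of the 20S core, stood at 47.3 and 27.7 CPM (-0.76), and Psmc6, an ATPase of the 19S particle, at 83.4 and 55.4 (-0.58), whereas Psmd14, the deubiquitinase of the lid, stood at 122.7 and 130.6 (0.09), against -0.81 in adipocyte-type nuclei. Antioxidant genes had a median of 0.10, with 5 of 16 at least 1.5-fold higher and 1 lower. Among the higher were Gpx1, a glutathione peroxidase (60.2 and 94.99 CPM), and Prdx1, a peroxiredoxin, of whose 143 KO UMIs 1 nucleus held 43. Without the nuclei of high doublet scores the list's median was 0.35, with 3 of 14 higher and none lower. Its summed level was 1569 CPM in Flox and 3204 in KO in subgroup 4. Subgroup 1 had 702.8 and 764.3 CPM, and subgroup 2 had 805.3 and 773.0. Ftl1, the ferritin light chain, stood at 161.2 and 248.3 CPM (0.62) and Aco1, the iron-sensing aconitase, at 84.2 and 47.5 (-0.82). The nuclear-encoded respiratory chain had 22 of 30 genes at or below 0 and a median of -0.25, opposite in sign to the mitochondrially encoded genes.

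**Figure D5:**
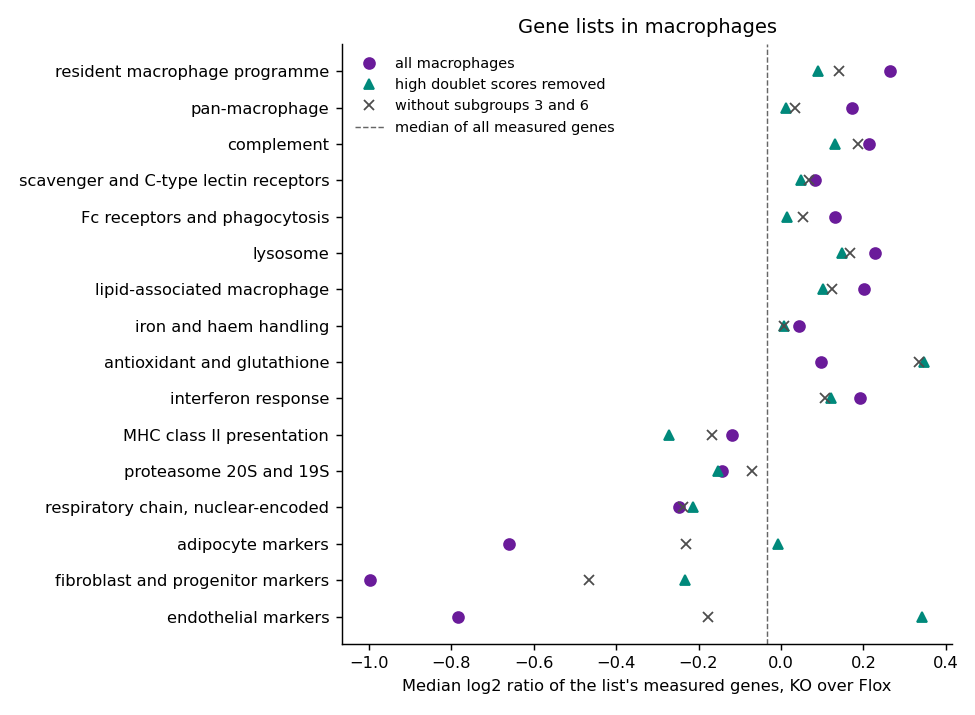
Median log2 ratio, KO over Flox (x axis), of the measured genes of 16 lists in all macrophages (purple circles), without nuclei of high doublet scores (green triangles) and without subgroups 3 and 6 (grey crosses), with the median of all 6920 genes as a dashed line; genes of the selection rule are counted in their lists. Above 0 under each of the 3 settings lie the resident macrophage, pan-macrophage, complement, scavenger, Fc receptor, lysosome, lipid-associated, iron, antioxidant and interferon lists. The pan-macrophage median is 0.013 and the iron median 0.0072 without nuclei of high doublet scores. The adipocyte, fibroblast and endothelial marker lists move furthest when nuclei are left out.

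Genes of lipid handling and of talk with fat cells differed by member. Trem2, a lipid receptor of lipid-associated macrophages, stood at 47.3 and 71.2 CPM (0.59), and Apoe, the apolipoprotein, at 4890 and 5862 (0.26). Fabp4 and Fabp5, fatty acid carriers, were lower at 691.3 and 438.3 and at 37.7 and 13.9 CPM, and Fabp4 stood at 1671 and 1773 CPM in other barcodes, above the macrophages. Gpnmb had 473 UMIs in Flox against 402 in KO (0.07). The noradrenaline transporter Slc6a2 had no UMI in the macrophages of either library, which allows up to 2.41 CPM in Flox against 2.97 in KO by 3 UMIs. Adrb1, a receptor for noradrenaline, stood at 38.5 CPM in Flox against 68.3 in KO, and other barcodes held 51.0 against 64.8 CPM; the part of free RNA was not tested. Of the trophic factors beside Pdgfc, Igf1 (-0.16), Tgfb1 (0.02) and Gas6 (0.13) were level, and Vegfa stood at 246.2 and 185.0 CPM (-0.41), far below the 1324 and 1587 CPM of other barcodes. The log2 ratio of Vegfa was 0.07 without the nuclei of high doublet scores.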

How the data were processed

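Nuclei of brown adipose tissue were profiled with the 10x Genomics 3′ v3 chemistry, per the labels' protocols. The authors deposited UMI counts of 22620 genes in each barcode; the file headers name Cell Ranger 5.0.0, and the submitters' processing notes name mm10. How introns were counted and barcodes called is not stated there. Free RNA and doublets stay in such counts. The members and gene lists were chosen with earlier results of these data known.

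Counts were summed over members per library and scaled to their total (CPM), and log2 ratios were formed, after adding 0.5 UMI, where a gene had 50 or more UMIs in the 2 libraries together. Ratios and shares have exact binomial intervals and CPM exact Poisson intervals, at 95%, for counting error. The 24 genes named by size were at least 1.5-fold apart with at least 50 CPM in the higher library, a level there not below other barcodes, an interval excluding 1 and at most 20% of UMIs in 1 nucleus, 12 each way; mitochondrial, ribosomal, haemoglobin, clone and sex-linked genes were left out. The 20 genes furthest above other barcodes, and up to 3 members each way and those with most UMIs per list, were also named. Gene positions came from GENCODE vM21. Comparison nuclei were set by marker genes: adipocyte-type (7941 Flox, 8032 KO), endothelial-type (826, 647), fibroblast-type (640, 521), antigen-presenting type (39, 32) and T/NK-type (39, 62).

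Members were clustered with scanpy 1.11.5 and leidenalg 0.10.2 (1500 variable genes, 20 principal components, 15 neighbours, resolution 0.5, no batch correction). Doublets were scored with Scrublet over each whole library and kept; removing the highest scores, 0.8% per 1000 barcodes, was an alternative and took out 66 Flox and 22 KO members. Other alternatives were changed selection limits, thinning, TMM factors from edgeR 4.0.16, other totals, the mean CPM over nuclei, other UMI minimums, a filter on genes below their level in other barcodes, and each gene without its highest nucleus. Leaving out subgroups 3 and 6, totals over genes not below other barcodes, and lists without the genes of the selection rule, were added after seeing the data. The counting was tested on simulated data. Scripts ran in R 4.3.3 and in Python 3.11.15 with pandas 2.3.3, SciPy 1.17.1, NumPy 2.4.6 and matplotlib 3.10.9.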

Additional observations from a re-analysis of the deposited data

Results flagged for a closer look

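A few genes had a difference in macrophages that ran against the one in adipocyte-type nuclei of the same libraries, at least 1.5-fold each way and with intervals that excluded 1 on both sides. All were higher in KO in macrophages and lower in KO in adipocyte-type nuclei. Dusp1 had log2 ratios of 1.42 and -0.68, Ankrd33b of 1.21 and -1.35, Klf4 of 1.04 and -0.62, and Cpt1a of 1.01 and -0.59. Of the macrophage genes, Lyve1 had 0.67 and -0.84, Fcna 0.94 and -1.09, and Tlr7 0.60 and -0.64; their level in adipocyte-type nuclei was low, at 2.24 and 1.25 CPM for Lyve1. Without the nuclei of high doublet scores Lyve1 (0.48) and Tlr7 (0.48) were less than 1.5-fold higher in macrophages, as they were with nuclei thinned to 1000 UMIs (0.09 and 0.27), while Fcna had 0.84 and 0.77. With 1 library per genotype the difference between the kinds of nuclei was not tested.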

How the results depend on the processing

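No paired analysis was possible because each genotype had 1 library, and no replicate could be left out for the same reason. All 24 genes named by size kept their direction under each of 17 alternatives, and the ratio of shares ran from 0.791 to 0.898. The changed UMI minimums and the filter on genes below other barcodes leave a gene's own ratio unchanged, so these could turn none. The 24 genes were also picked from these same counts for being far apart. Some came near 0, with Dna2 at -0.028 and Lrrc41 at -0.19 at their smallest. Genes at least 2-fold higher in KO numbered 43, and 27 with nuclei thinned to 1000 UMIs, 76 by the mean CPM over nuclei, 131 at a minimum of 20 UMIs and 1065 with no minimum. Genes at least 2-fold lower numbered 151, and 70 with Ppara and Cidea below 0.1%, 35 without high doublet scores, 50 with the selection on 500 UMIs per barcode, 43 thinned, 446 at 20 UMIs, 2370 with no minimum, 23 among genes not below other barcodes and 55 without subgroups 3 and 6. The resident programme's median log2 ratio of 0.26 became 0.089 without high doublet scores, 0.14 with the selection on 500 UMIs, 0.078 thinned and 0.14 without subgroups 3 and 6, and that of the lysosome list (0.23) 0.12 with Ppara and Cidea below 0.1% and 0.12 with the selection on 500 UMIs. The adipocyte marker median of -0.66 became -0.56 at 2 of 10 macrophage genes, -0.78 with none of the 7 genes of other cells, -0.30 with Ppara and Cidea below 0.1%, -0.0073 without high doublet scores, -0.082 with the selection on 500 UMIs, -0.40 thinned, -0.37 by the mean over nuclei, -0.50 at 20 UMIs and -0.23 without subgroups 3 and 6. Among lists and genes at least 1.5-fold apart, genes also with an interval excluding 1, directions reversed for the noradrenaline list (0.68 to -0.35 thinned and -0.13 with no minimum), endothelial markers (-0.78 to 0.34 without high doublet scores and 0.52 among genes not below other barcodes), Ttn (0.11 with none of the 7 genes), Saa3 (2.63) and Gclc (-0.036) without the highest nucleus, Gclc (-0.027) with the selection on 500 UMIs, Prdx6 (0.24 thinned), Ppara (0.40), Plin4 (0.012), Rgcc (0.16) and Ebf2 (0.31) without high doublet scores, Rgcc (0.093) and Ebf2 (0.043) with the selection on 500 UMIs, and Col3a1 (0.15) without subgroups 3 and 6. Of named genes closer than that, Vegfa (-0.41 to 0.070), Adra1a (-0.47 to 0.65) and Esrrg (-0.50 to 1.08) turned without high doublet scores. Without the genes of the selection rule the medians of the complement (0.21 to 0.061), endothelial (-0.78 to -1.01) and skeletal muscle lists (-1.99 to -1.50) moved. Fewer genes or nuclei enter under the changed minimums and selections, and the cause of the other moves was not tested. TMM factors were 1.02 for Flox and 0.979 for KO. Depth limits thinly counted genes: the 70 and 62 UMIs of Nfe2l1 leave a ratio between 0.764 and 1.56.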
